A study of Xenopus laevis with 111 samples.

Results

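The libraries described here are the 9 transected and 9 sham libraries taken 16 to 21 h after surgery, which are 18 of the 111 libraries of the series and 18 of the 105 libraries of its time series. They were chosen by surgery, hour and series from the sample labels, without use of any measured value. All came from *Xenopus laevis* tadpoles at NF stage 50, and each was made from a pool of 12 dissected spinal cords. The tissue was a caudal section of the cord, taken behind the level of surgery. In transected animals the dorsal skin and muscle were cut at mid-thoracic level and the cord was then cut through. In sham animals the skin and muscle were cut in the same way and the cord was left intact. Both groups therefore share anaesthesia, a wound of skin and muscle, and the hours in culture with antibiotics, and they differ in the cut of the cord. Series S5 gave the hours 16, 17 and 18, and series S6, from another batch of animals, gave each hour from 16 to 21. Libraries of both surgeries that share series and hour form a pair, since both were taken in parallel from 1 batch of animals. The comparison asks how the cord behind the cut differs from the cord of animals with the surrounding wound alone.

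Cutting the spinal cord severs the axons that run along it and damages neurons, glia, vessels and the cells that line the central canal. Tadpoles of this species repair such a cut before metamorphosis, and cells around the central canal with the properties of neural stem and progenitor cells divide and help to rebuild the tissue. After injury of the nervous system, stress, inflammatory and wound genes usually change first, and genes of growth and cell division later. *X. laevis* is an allotetraploid frog, so that most genes exist as a pair of similar copies, called homeologs.

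What was measured is polyA+ RNA, mapped by the authors to the gene models of this species. RSEM estimated an expected count, the number of reads from a gene, for each of 45099 gene models, and it divided reads that fit several transcripts among them, so that a count may be misdivided between homeologs or other close copies. The transected libraries held 14.7 to 76.6 M expected counts (M stands for mega, median 20.6 M), and the sham libraries 16.0 to 27.4 M (median 18.8 M). Transected libraries had counts for 33430 to 37263 genes and sham libraries for 33686 to 35137 genes. No library was identical to another, and Spearman correlations between libraries lay between 0.969 and 0.997. The gene models carry identifiers that were not tied to gene symbols here, so the results are given for groups of genes set by direction, size, level and length, and the markers of the labelled tissue were not checked. Fewer cells of a type and less RNA per cell cannot be told apart in pooled tissue.

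Transected and sham libraries lay apart on the main axis of variation. The first principal component of log2(CPM + 0.5), where CPM is counts per M counts, held 44.3% of the variance. Its loadings lay between 0.132 and 0.334 in the transected libraries and between -0.300 and -0.086 in the sham libraries, without overlap. The second component held 22.4% of the variance and separated the batches. Its loadings lay between 0.195 and 0.439 in S5 and between -0.281 and -0.012 in S6. Neither component held surgery or batch alone. On the first, S5 lay above S6 within each surgery, at 0.271 to 0.334 against 0.132 to 0.211 in transected libraries. In sham libraries these ranges were -0.151 to -0.086 and -0.300 to -0.256. On the second, sham lay above transected libraries within each series, at 0.337 to 0.439 against 0.195 to 0.291 in S5. In S6 these ranges were -0.168 to -0.012 and -0.281 to -0.177.

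**Figure D1:**
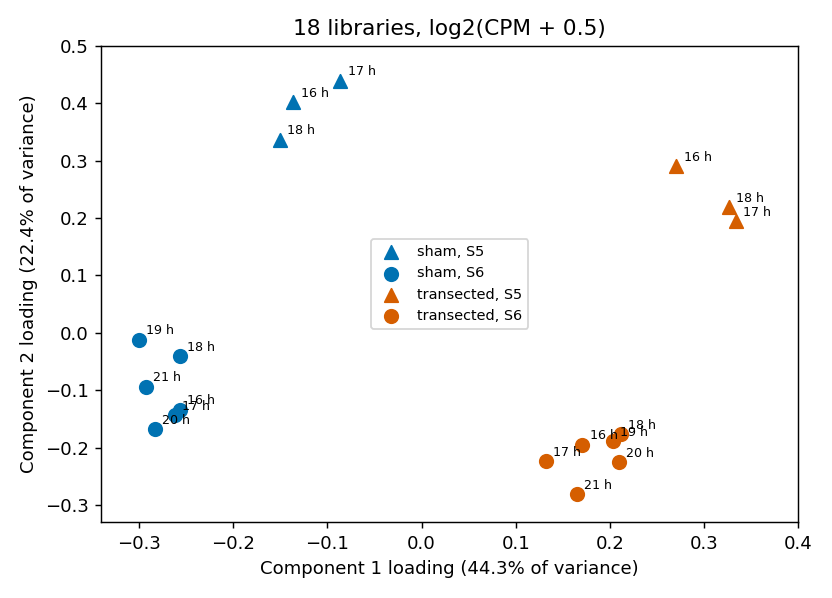
Loadings of the 18 libraries on the first 2 principal components of log2(CPM + 0.5), with surgery by colour, series by symbol and the hour beside each point. Transected libraries lie at 0.132 or above on the first component and sham libraries at -0.086 or below, while S5 and S6 lie apart on the second.

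For each gene, the counts of the 2 surgeries were set against each other by edgeR's quasi-likelihood test, blocked by pair, and genes with a Benjamini-Hochberg adjusted p under 0.05 over all genes tested are called higher or lower, meaning in transected relative to sham libraries. Of 32319 genes tested, 14082 (43.6%) were called. Of these, 7620 genes (23.6%) were higher and 6462 (20.0%) were lower. The split between directions depended on the scaling. Scaling by library totals alone, an alternative chosen after seeing the data, gave 9067 higher and 4672 lower genes, and DESeq2's size factors in edgeR gave 7053 and 7289. DESeq2 called 13001 genes. The hours of a series stand in for replicates, so how much batches of animals vary is not part of these p-values.

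Most of these differences were small. The median log2 difference was 0.41 for genes called higher and -0.34 for genes called lower, against -0.01 for all genes tested. Large differences were more often increases. Among the genes called higher, 2312 differed by at least 1.5-fold, 849 by at least 2-fold, 158 by at least 4-fold and 43 by at least 8-fold. Among the genes called lower, the corresponding numbers were 1325, 422, 41 and 6. The genes that differed by at least 2-fold thus made up 11.1% of those called higher and 6.53% of those called lower.

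Single pairs mostly had the direction of the estimate, which the choice of the genes by the same pairs brings with it in part. The difference was positive in all 9 pairs for 4966 of the genes called higher (65.2%) and negative in all 9 pairs for 3202 of the genes called lower (49.6%). With 1 exception allowed, these numbers were 6855 and 5387. Among genes that differed by at least 2-fold, 722 of those higher (85.0%) and 266 of those lower (63.0%) had the same direction in all pairs. The 2 directions also differ in level here. A mean under 1 CPM, where counts are few, was found for 267 of the 849 higher and 206 of the 422 lower genes of this size. Every transected library lay above every sham library for 2276 genes (7.04% of those tested), and every transected library lay below every sham library for 997 genes (3.08%).

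The pair at 20 h in S6 went against the others most often. It alone was the exception for 682 of the 2185 genes called lower with 1 exception, while each of the other pairs was the exception for 111 to 308 of them. For genes called higher it was the exception for 403 of 1889, and the other pairs for 73 to 303. Among genes with a mean of at least 1 CPM, this pair also had the most that were at least 2-fold higher, 966, where the other pairs had 417 to 727. The fewest genes at least 2-fold lower, 130, were in the pair at 17 h in S6, and the most, 497, in the pair at 17 h in S5.

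The direction of the calls depended on how strongly a gene was expressed. Among genes with a mean of 1 to 10 CPM over the 18 libraries, 2388 of 9904 were higher and 1792 lower. Between 10 and 100 CPM, 4465 of 13419 genes were higher and 3477 lower. The balance then turned. Between 100 and 1000 CPM, 298 of 1523 genes (19.6%) were higher and 690 (45.3%) lower. At 1000 CPM or more, 7 of 83 genes (8.43%) were higher and 60 (72.3%) lower. From 100 CPM up, lower genes also outnumbered higher ones with library totals (514 against 378, and 59 against 8) and with DESeq2's size factors (763 against 267, and 64 against 6). Below 1 CPM, 462 and 443 of 7390 genes were called higher and lower. The size of the log2 difference of called genes, without its sign, had a median of 1.02 below 1 CPM, 0.47 from 1 to 10 CPM and 0.28 from 100 to 1000 CPM. A gene of low level passes the threshold only with a large difference, so these sizes of called genes depend on depth.

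**Figure D2:**
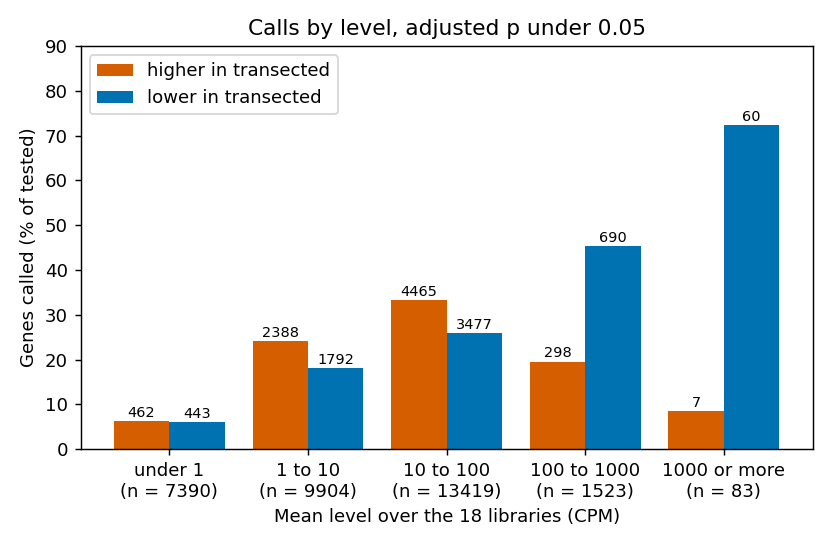
Percentage of tested genes called higher (orange) or lower (blue) in transected libraries, by mean level over the 18 libraries in CPM, with the number of called genes above each bar and the number tested under the axis. Lower calls reach 72.3% among the 83 genes of 1000 CPM or more, where 8.43% were higher.

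The genes called higher took 24.2 to 26.2% of all counts in the transected libraries (median 24.8%) and 16.5 to 18.6% in the sham libraries (median 18.1%). The genes called lower took 38.5 to 41.3% in the transected libraries and 45.6 to 50.7% in the sham libraries. In both groups of genes the 9 transected and 9 sham libraries did not overlap, which the choice of the genes by the same contrast brings with it. The 849 genes at least 2-fold higher took 1.55 to 1.89% of the counts in transected libraries and 0.512 to 0.761% in sham libraries. The 422 genes at least 2-fold lower took 0.354 to 0.456% and 0.874 to 1.11%. Most of the shift in the share of counts of called genes thus lay in genes that differed by less than 2-fold.

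The most abundant transcripts were lower as a group. Levels of different genes were set side by side in TPM, transcripts per M transcripts, which corrects for length, and a minimum mean of 1000 TPM was chosen after the calls by level were seen. Of the 174 genes that reached it, 144 (82.8%) were called lower and 5 higher, against 20.0% and 23.6% of all genes tested. Their median log2 difference was -0.28, with quartiles at -0.32 and -0.24, and 163 of the estimates were negative. With a minimum of 100 TPM, 587 of 1137 genes (51.6%) were lower and 170 higher, and with a minimum of 10 TPM, 3494 of 12302 were lower and 3751 higher.

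These 174 genes took 35.8 to 40.7% of all TPM in the transected libraries (median 37.1%) and 38.0 to 45.0% in the sham libraries (median 43.4%), and the ranges overlap. Their share was lower in the transected library of 8 of the 9 pairs. The widest gap was at 21 h in S6, with 35.8% in the transected and 44.1% in the sham library. The exception was the pair at 20 h in S6, with 40.7% and 39.4%. In that pair the median log2 difference of the group was 0.12 and 8.62% of its genes were lower, whereas in the other pairs the median lay between -0.70 and -0.11 and 78.7 to 96.6% were lower. In all 9 pairs, 4 of the 174 genes were lower and 3 were higher.

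The abundant genes moved together from library to library, so the 144 calls are not independent of each other. Of the 174 genes, 80 were called lower in S5 alone and 82 in S6 alone at 16 to 18 h. Over all genes tested, 3820 of 32289 were lower in S5 alone and 4024 of 32277 in S6 alone at those hours. None of the 174 genes was called in the test of a difference between the series, where 0.238% of all genes were called. So small a share leaves few calls to find in a group of this size, so this does not show that the batches agreed. At earlier hours the group had no steady direction. Over the 27 pairs from 0.5 to 15 h its median log2 difference ranged from -0.37 to 0.46 with either sign, and 4 of the 9 pairs of 16 to 21 h lay below that range. Relative to the single 0 h library of S6, the group's median log2 difference was -0.53 for transected and -0.21 for sham libraries of S6. Relative to 6 uninjured libraries of the same hours in series S8, it was -0.02 in transected and 0.31 in sham libraries, and these batches differ, so batch and surgery cannot be told apart in that comparison.

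The abundant genes were short, which a choice by TPM favours, since TPM divides counts by length. Their median effective length, the number of positions in a transcript where a fragment can start, was 693 nucleotides, against 2318 for all genes with a length. Over all genes, however, the length of called genes differed little by direction. The median was 2636 nucleotides for genes called higher, 2531 for genes called lower and 2016 for genes not called. Among genes of 100 to 1000 CPM, those called lower had a median of 2457 nucleotides, those called higher 3159 and those not called 3766. When genes were divided by length into 5 classes of equal number, 23.3% of the shortest and 29.1% of the longest were higher, and 23.1% and 25.7% were lower. The median level rose from 6.04 CPM in the shortest to 31.4 CPM in the longest class, so these shares are not matched for level. The part of transcript length in the differences was not tested.

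The share of calls was similar for genes with and without reads divided among copies. For 2961 genes the expected count was a whole number in all 18 libraries, taken as deposited with up to 2 decimals and with no tolerance, as it is where no read is divided. Between 1 and 10 CPM, 42.1% of these genes and 42.2% of the others were called. Below 1 CPM the shares were 12.6% and 12.1%, and from 10 to 100 CPM they were 57.7% of 26 genes and 59.2% of 13393. The shares are not matched for level. Genes with whole counts had a median of 2.13 CPM against 4.19 in the others between 1 and 10 CPM, and 0.198 against 0.334 below 1 CPM.

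Few differences were of presence against absence. Of the genes called higher, 4 had no count in any of the 9 sham libraries. Their level in transected libraries was 3.29 to 14.8 times a limit of 3 counts over the sham group (0.0168 CPM). Of the genes called lower, 4 had no count in any transected library. Their level in sham libraries was 3.78 to 22.2 times the same limit over the transected group (0.0119 CPM). The error of the level set against the limit is not part of these ratios. A single gene was counted in all 9 transected libraries and in no sham library, and no gene had the opposite pattern.

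S5 and S6 were different animals sampled at the same hours, so each served as a test of the other. At 16 to 18 h, with 3 pairs each, 8099 genes (25.1%) were called in S5 and 9520 (29.5%) in S6. Among the 32248 genes tested in both, 6021 were called in both, which is 74.4% of the calls of S5 and 63.3% of the calls of S6. The direction was the same for 5998 of them and opposite for 23. All genes called in S5, whether or not they passed in S6, had the same direction in S6 in 96.6% of cases, and those called in S6 had the same direction in S5 in 96.1%. Genes called in neither series had the same direction in 65.0%.

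The sizes carried over in large part, least so for the genes called lower in S5. In each case the first value is from the series that called the genes. Genes called higher in S5 had a median log2 difference of 0.53 there and 0.50 in S6, and those called lower had -0.47 and -0.32. Genes called higher in S6 had 0.49 there and 0.41 in S5, and those called lower had -0.38 in both. Over 24927 genes of at least 1 CPM, the log2 differences of the series had a Pearson r of 0.819 and a Spearman rho of 0.780. This correlation is across genes, which are not independent replicates. With all 6 of its hours, S6 alone gave 11299 calls (35.0%).

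**Figure D3:**
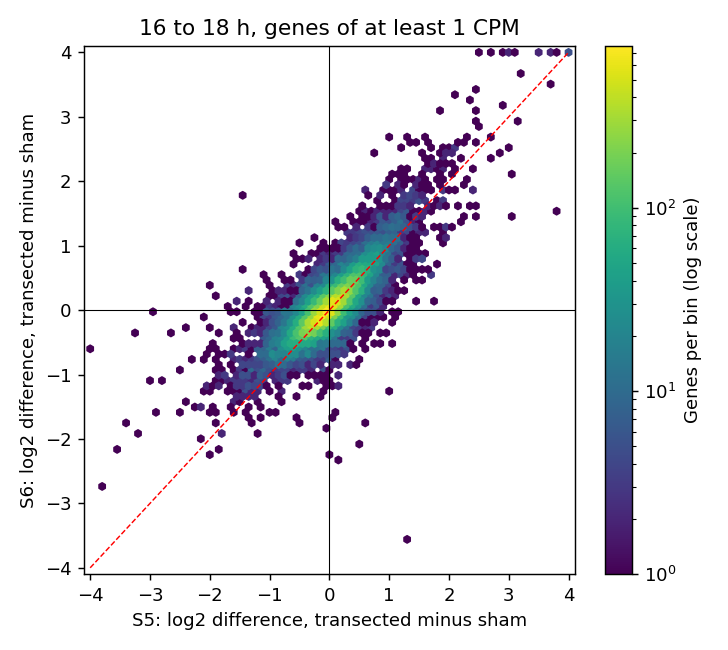
Log2 difference between transected and sham libraries at 16 to 18 h in S5 (x axis) against S6 (y axis) for 24927 genes of at least 1 CPM, with colour for the number of genes per bin on a log scale and values beyond 4 drawn at 4. The points lie along the dashed line of equal differences, with a Pearson r of 0.819.

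The interaction of surgery and series, which tests whether the batches responded unequally, called 77 of 32318 genes (0.238%) in edgeR's quasi-likelihood test. Of these, 60 (0.186% of those tested) had a more positive difference in S6, with median log2 differences of -0.48 in S5 and 0.38 in S6. The other 17 (0.0526%) had a more negative one, with medians of 0.46 and -0.37. Opposite signs were found for 27 of the 77, and 29 differed between the series by at least 2-fold. Over the 9 pairs, 28 of them were called higher, 31 lower and 18 neither. Single pairs decided the number. Leaving out the pair at 17 h in S5 gave 205 genes, and leaving out the pair at 18 h in S5 gave 105. Leaving out the pair at 16 h in S5 or at 16, 17 or 18 h in S6 gave 51, 27, 20 and 45. With all these pairs, 2392 genes (7.40%) had an unadjusted p under 0.05 in edgeR's quasi-likelihood test. The median standard error of the interaction was 0.14 on the log2 scale for genes called over the 9 pairs, so that small differences between batches were not detectable with 3 pairs each.

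Within S6 the differences did not change detectably from 16 to 21 h. The interaction of surgery and hour called 0 of 32300 genes (0.0%) in edgeR's quasi-likelihood test, where 1173 genes (3.63%) had an unadjusted p under 0.05 and the smallest adjusted p was 0.305. DESeq2 also called 0, with 365 genes at an unadjusted p under 0.05. The median change of the log2 difference per hour was 0.02 for genes at least 2-fold higher and -0.04 for genes at least 2-fold lower, with a median standard error of 0.05 for called genes. This count rests on the pair at 20 h. Without it, 346 genes were called, 69 of them rising and 277 falling with the hour relative to sham, and without the pair at 21 h, 1 gene was called.

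Earlier hours played no part in the choice of these genes, though the animals of S5, sampled from 10 h on, also took part in it. For the 582 genes of at least 1 CPM that were at least 2-fold higher at 16 to 21 h, the median log2 difference of the typical pair was 0.10 at 0.5 to 2 h (10 pairs), 0.37 at 3 to 6 h (5 pairs), 0.58 at 7 to 10 h (5 pairs), 0.88 at 11 to 15 h (7 pairs) and 1.21 at 16 to 21 h (9 pairs). The share of these genes with a positive difference was 61.9%, 83.5%, 93.8%, 97.1% and 99.8% in the same windows. For the 216 genes at least 2-fold lower, the typical pair had 0.02, -0.05, -0.45, -0.72 and -1.14, and 47.0%, 56.0%, 84.3%, 92.6% and 99.1% of them were negative. The 5 pairs of 3 to 6 h differed most for the genes that ended lower, with medians from -0.45 to 0.06 and 44.9 to 80.6% negative. For the genes that ended higher they had medians from 0.25 to 0.63 and 75.4 to 94.3% positive. At 6 h, the hour that S3 and S4 share, the lower genes had a median of -0.24 in S3 and -0.45 in S4, and the higher genes 0.63 and 0.37, so the batches did not give 1 order of the directions. S4 and S5 share 10, 11 and 12 h. There the higher genes had 0.648, 0.452 and 0.605 in S4 and 0.904, 0.946 and 0.861 in S5. The lower genes had -0.413, -0.526 and -0.758 in S4 and -0.715, -0.717 and -0.649 in S5. Within S3 the higher genes moved from 0.050 at 1 h to 0.628 at 6 h, and the lower genes from -0.074 to -0.242. Within S4 the higher genes moved from 0.372 at 6 h to 0.605 at 12 h, and the lower genes from -0.452 to -0.758. Within S5 the higher genes moved from 0.904 at 10 h to 1.238 at 18 h, and the lower genes from -0.715 to -1.233. Part of the change across windows thus lay within series, and part coincides with the change of series. No series of animals gave all windows. S1 and S2 gave hours from 0.5 to 2 and most pairs of the first window. S3 gave hours from 1 to 6, S4 from 6 to 12, S5 from 10 to 18 and S6 from 16 to 21. Hour and batch thus cannot be fully told apart, and the last window is the one that chose the genes.

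**Figure D4:**
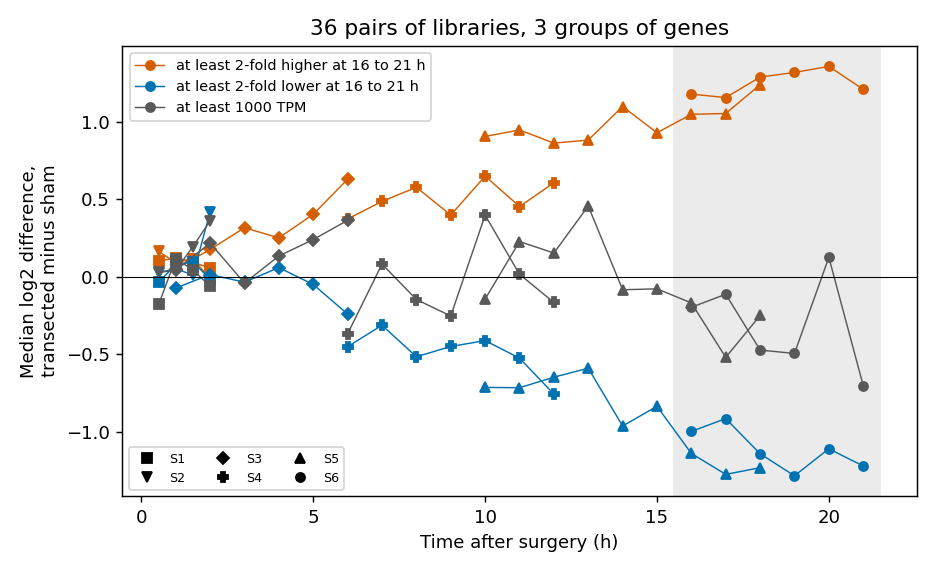
Median log2 difference between transected and sham libraries in each of 36 pairs against hours after surgery, for genes at least 2-fold higher (orange) or lower (blue) at 16 to 21 h and for genes of at least 1000 TPM (grey), with the series by symbol and the hours used for the choice shaded. The typical pair moves from 0.10 to 1.21 for the higher genes and from 0.02 to -1.14 for the lower genes, while the abundant genes vary between -0.70 and 0.46.

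How often the transected mean lay farther than the sham mean from a reference without injury depended on the reference. For the genes at least 2-fold higher, the median log2 difference from the 0 h library of S6 was 1.25 in transected and 0.00 in sham libraries of S6, and the transected mean was the farther one for 97.3% of genes. For the genes at least 2-fold lower, the values were -1.21 and -0.12, and the transected mean was farther for 95.8%. Over all called genes of at least 1 CPM, the transected mean was farther for 74.4% of the 7158 higher and 83.5% of the 6019 lower genes, and for 58.6% of genes not called. The 0 h level is a single library, so its error could not be estimated and is not part of these shares. Set against the 6 uninjured libraries of S8, the genes at least 2-fold higher were at 0.85 in transected and -0.36 in sham libraries, and those at least 2-fold lower at -0.73 and 0.42. There the transected mean was the farther one for 75.9% and 58.8% of these genes, for 53.9% and 50.0% of all genes called higher and lower, and for 49.0% of genes not called. This reference comes from another batch of animals, so batch and surgery cannot be told apart.

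The size and evenness of the differences can be seen in 4 gene models, the 2 higher and the 2 lower ones with the smallest p among those of at least 10 CPM that moved the same way in all 9 pairs. Their choice used the contrast, so their tests describe them and support nothing further. Each shares some reads with other transcripts.

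Xelaev18023847m.g had 36.7 CPM, normalized by TMM as for all 4, in its lowest, 50.7 in its median and 55.1 in its highest transected library, and 4.67, 6.89 and 10.5 CPM in the sham libraries. The groups did not overlap, and the lowest transected library, at 21 h in S6, still held over 3 times the level of the highest sham library, at 17 h in S5. The means were 48.3 ± 5.49 and 6.97 ± 1.70 CPM (SD, n = 9), a log2 difference of 2.80 (SE 0.08, adjusted p = 2.62e-14 by edgeR's quasi-likelihood test with Benjamini-Hochberg adjustment), or 6.97-fold. The log2 difference was 2.48 in S5 and 2.90 in S6 at 16 to 18 h. The 0 h library of S6 had 5.04 CPM and the uninjured libraries 7.72 to 9.15 CPM, near the sham level. The median log2 difference of the earlier windows rose from 0.25 over 0.82 and 1.18 to 2.17.

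Xelaev18009214m.g, more abundant, had 149 CPM in its lowest, 168 in its median and 214 in its highest transected library, and 37.2, 45.7 and 69.1 CPM in the sham libraries. The 3 highest transected values were those of S5, and so were the 2 highest sham values, and the groups did not overlap. The means were 176 ± 23.2 and 47.3 ± 9.07 CPM (SD, n = 9), a log2 difference of 1.90 (SE 0.06, adjusted p = 3.39e-14 by edgeR's quasi-likelihood test with Benjamini-Hochberg adjustment). It was 1.88 in S5 and 1.90 in S6 at 16 to 18 h. At 0 h the S6 library had 41.2 CPM, and the uninjured libraries had 50.3 to 71.2 CPM. Its medians in the earlier windows, which came from different batches, were -0.04, 0.12, 0.48 and 1.35, each below that of the first gene.

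Xelaev18026738m.g, lower in transected libraries, had 17.1 CPM in its lowest, 22.5 in its median and 25.8 in its highest transected library, and 43.3, 53.1 and 62.0 CPM in the sham libraries. The groups did not overlap. The means were 21.9 ± 2.67 and 53.2 ± 5.72 CPM (SD, n = 9), a log2 difference of -1.28 (SE 0.05, adjusted p = 2.18e-13 by edgeR's quasi-likelihood test with Benjamini-Hochberg adjustment). The sham level was close to that of the 0 h library of S6, 54.5 CPM, and of the uninjured libraries, 49.0 to 68.8 CPM. The medians of the earlier windows were 0.24, -0.48, -1.06 and -1.19. Single pairs of 7 to 10 h ranged from -1.33 to -0.75 and came mostly from S4, so hour and batch cannot be told apart.

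Xelaev18041431m.g had 95.8 CPM in its lowest, 118 in its median and 142 in its highest transected library, and 236, 295 and 355 CPM in the sham libraries. The groups did not overlap. The means were 116 ± 15.9 and 295 ± 40.0 CPM (SD, n = 9), a log2 difference of -1.35 (SE 0.05, adjusted p = 4.42e-13 by edgeR's quasi-likelihood test with Benjamini-Hochberg adjustment). It was -1.40 in S5 and -1.25 in S6 at 16 to 18 h. The 0 h library of S6 had 276 CPM and the uninjured libraries 213 to 249 CPM. Its medians were 0.19, 0.22, -0.44 and -0.99 in the earlier windows, which also came from different batches. None of the 4 gene models differed between the series by the interaction test (adjusted p = 0.449, 1, 0.900 and 0.895 in the order given, edgeR's quasi-likelihood test).

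**Figure D5:**
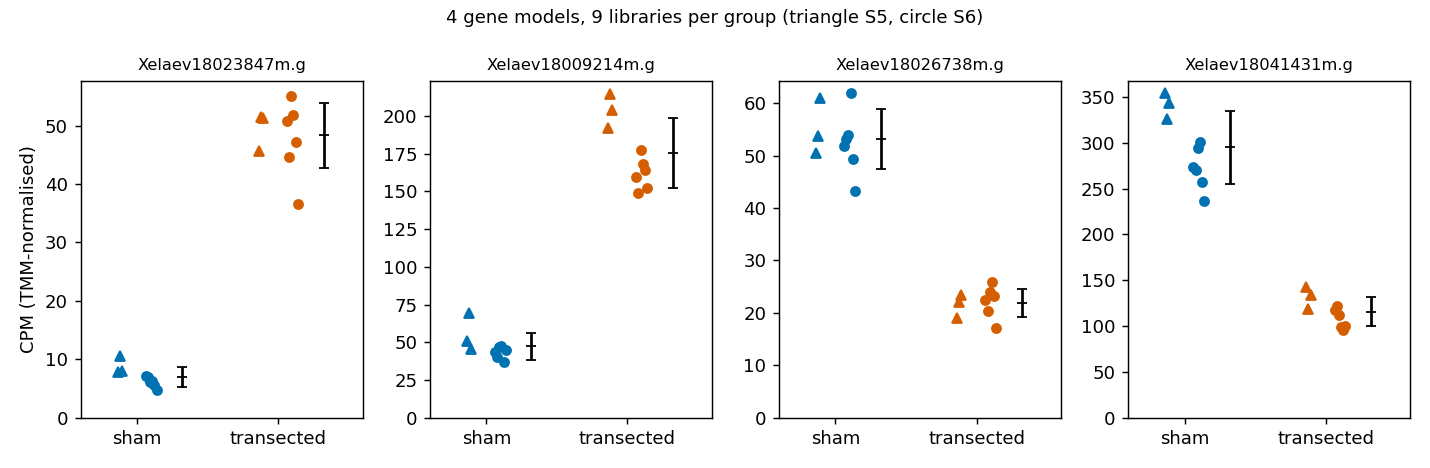
CPM of 4 gene models in the 9 sham and 9 transected libraries, with triangles for S5, circles for S6, and the mean and SD at the side of each group. Transected and sham libraries do not overlap in any of them, with means of 48.3 against 6.97 CPM for Xelaev18023847m.g and 21.9 against 53.2 CPM for Xelaev18026738m.g.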

How the data were processed

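RNA of caudal spinal cord was sequenced as polyA+ libraries. Per the submitters' processing notes, CASAVA 1.7, Bowtie and RSEM were used by the authors, with model transcriptome v9.1 of the species as the reference for mapping. The authors deposited, for each gene and library, an expected count (not normalized), a TPM and an FPKM (both scaled to library and length). The identifiers matched none of the 44456 genes of the RefSeq table (0 matches), so gene lists and cell type markers were not applied, and no sequence is shown.

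Expected counts were rounded. Genes with at least 5 counts at 4 or more time points in 1 condition of the time series were kept (32328 genes, 99.98% of the counts), and 32319 had a count here. Tests used edgeR 4.0.16 in R 4.3.3 (TMM, quasi-likelihood F-test, Benjamini-Hochberg adjustment), with the pair as a block, and DESeq2 1.42.0 as an alternative. Tables were summarised in Python 3.11.15 with numpy 2.4.6 and pandas 2.3.3. Transcript length was taken from the ratio of count to FPKM where FPKM was at least 1 (80.9% of kept genes). The common dispersion had a square root of 0.0954. Differences in single pairs, at single hours and against 0 h or uninjured libraries are of log2(CPM + 0.5).

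Pairing follows from the study's design, in which sham samples came from the same batches of animals at equal hours. Deviations from the group mean correlated within pairs at 0.0722 to 0.618 (over 0.1 in 8 of 9), and deviations from the mean of group and series at -0.329 to 0.371 (over 0.1 in 5 of 9).

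The gene models printed are the 2 higher and 2 lower ones with the smallest p among those with 1 sign in 9 of 9 pairs and a mean of at least 10 CPM. The rule for the libraries used the labels alone, but the libraries, lists and tests were chosen with earlier results of these data known. Alternatives covered the block, the scaling, the test, the gene filter, the libraries in the fit, each series, and each pair left out. The scripts were tested on simulated data. The Torin1 and DMSO libraries were not used.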

Additional observations from a re-analysis of the deposited data

Results flagged for a closer look

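The transected library at 18 h in S5 had 76.64 M expected counts, far from the next total of 33.52 M in its group. Without its pair, 13035 genes were called in the comparison of transected with sham libraries. In the sham group, Xelaev18009214m.g had 69.09 CPM at 17 h in S5, where the next value was 50.68 CPM. In all, 24 groups of values were examined for a sample far from the others, and 2 had one. Chance gives about 1 in 20.

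The difference between transected and sham libraries itself differed between S6 and S5 at 16 to 18 h for 77 genes by the interaction of surgery and series (edgeR's quasi-likelihood test, adjusted p under 0.05). DESeq2 called 87.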

How the results depend on the processing

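The count of 14082 genes was within 1.5 times its value under scaling by DESeq2's size factors, by library totals, other gene filters, DESeq2's test, the fit over all 72 transected and sham libraries, S6 alone and 16 to 18 h of both series. S5 alone gave 8099, a minimum difference of 2-fold 1271, and the same sign in every pair 8168. Leaving out each pair gave 13035 to 14232. Without the replicate block, 14115 genes were called. Higher genes made up 54.1% of the calls, 66.0% with library totals and 49.2% with DESeq2's size factors, which moved the median log2 difference of genes of at least 1 CPM by 0.06 and -0.02. It was 48.9 to 54.5% with other filters, DESeq2's test, no block or all 72 libraries, and 52.8 to 57.7% within single series or hours, so that the excess of higher calls depends on these choices. The count of 77 genes between series was 25 without the block and 20 to 205 with a pair left out. The count of 0 genes changing with the hour was 0 to 346 with a pair left out. Of the 174 genes of at least 1000 TPM, 80 were called lower in S5 alone, 82 in S6 alone at 16 to 18 h and 135 to 156 with a pair left out. Over all genes, 3820, 4024 and 5948 to 6515 were called lower in the same settings. Library totals, S6 alone at 16 to 18 h, pairs left out of the tests between series and over hours, and all settings for the genes of at least 1000 TPM were chosen after seeing the data. The cause of these changes was not tested, apart from the smaller number of pairs or the stricter rule in some settings. The 4 gene models kept their direction and call under all 20 alternatives. No alternative was run for gene lists, which were not applied. Depth limits what can be seen below 1 CPM.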
